A study of Homo sapiens with 9 samples.

Results

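The 10 genes described here are a set of negative-feedback regulators, transcription factors and a kinase of the RAS-MAPK pathway, namely DUSP4, DUSP5, DUSP6, SPRY2, SPRY4, SPRED1, SPRED2, ETV4, ETV5 and BRAF. They are a list of gene symbols drawn up with earlier results of these data known, and each symbol matched exactly 1 of the 37118 genes in the deposited table. All 10 passed the expression filter (a mean of at least 1 FPKM, counts scaled by gene length and library size, over the 9 libraries), which 12394 genes passed in all. RNA was sequenced from A375 cells, a line derived from a human melanoma with an activated BRAF kinase, labelled as WT in genotype and given metformin at 0, 20 or 40 mM. Each dose had 3 libraries, and the 0 mM cells, the only controls, carry the same BRAF background as the treated ones. The labels state neither the length of treatment nor that replicates were grown apart, so a p-value measures the spread between libraries, which may be technical. A single cell line was used, and in bulk RNA fewer cells of a type and less RNA per cell cannot be told apart.

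In the RAS-MAPK pathway, growth factor receptors or mutated RAS or RAF switch on the kinases RAF, MEK and ERK in turn. Active ERK drives its own brakes: DUSP phosphatases remove the phosphates from ERK, and Sprouty and SPRED proteins act upstream on RAS and RAF. The ETS factors ETV4 and ETV5 are transcribed when ERK is active, being released from the repressor CIC, and in BRAF-mutant melanoma the transcripts of these feedback genes are widely read as a measure of ERK output.

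Library totals ran from 65738242 to 75629413 counts, so counting error is small for these genes: the lowest count of any of the 10 in any library was 1383, for DUSP5. Replicate 3 of 40 mM had the lowest total and the highest share of mitochondrially encoded counts, 4.36% against 2.76% to 3.77% in the other 8 libraries. It stood apart from its group on the second principal component (-22.6 against 17.7 and 15.2), so results at 40 mM are also given without it where they differ. Of 8 melanocyte and melanoma markers, 4 had a mean of at least 1 FPKM, led by the neural crest factor SOX10 at 104 FPKM at 0 mM, while the pigment genes TYR, MLANA, PMEL and DCT were at or below 0.452. Summed over the 8, the range was 113 to 139 FPKM at 0 mM, 114 to 124 at 20 mM and 87.8 to 127 at 40 mM. The top of the 40 mM range came from replicate 3, with SOX10 at 108 FPKM against 70.7 and 78.0 in replicates 1 and 2. From 0 to 40 mM S100B went from a mean of 10.2 to 5.98 FPKM, MITF from 3.06 to 3.10 and S100A1 from 8.29 to 8.61. Immune markers summed to 3.65 to 4.38 FPKM at 0 mM and 15.0 to 22.1 at 40 mM. Nearly all of this was the lysosomal protein gene CD68, since PTPRC and CD3E averaged 0.005 FPKM or less at every dose. Endothelial markers summed to 1.48 to 3.47 FPKM, mostly KDR, fibroblast markers to 0.39 to 0.668, and epithelial markers to 6.27 to 9.15, mostly KRT14. The part of these shifts in the results was not tested.

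At 0 mM most of the feedback genes were well expressed. Per length, SPRY2 (60.1 ± 3.92 FPKM, SD, n = 3 here and below) and ETV4 (59.2 ± 2.09) stood highest and their libraries overlapped. DUSP4 (42.4 ± 0.975), DUSP6 (30.6 ± 1.07) and SPRY4 (20.5 ± 1.84) followed, each apart from the next. ETV5 was at 14.2 ± 0.709, SPRED2 at 11.9 ± 0.794 and SPRED1 at 10.7 ± 0.409, the last 2 overlapping by a library. DUSP5 was lower at 7.67 ± 1.11 and BRAF was lowest at 1.31 ± 0.034. Over the 9 libraries ETV4 exceeded 95.3% of the tested genes in mean FPKM and BRAF exceeded 12.9%. BRAF had the largest divisor: the length in kb that the table implies, from counts scaled to the library total and divided by FPKM, came to 26.0 to 26.3 for BRAF and 2.81 to 8.69 for the other 9. The longest BRAF transcript in GENCODE release 29 has 9578 bases. The implied length also exceeded the longest transcript for other members, such as DUSP4 (8.07 to 8.16 kb against 5537 bases). For DUSP6 it did not (4.28 to 4.33 kb against 4400 bases). Levels compared between genes, and shares of a sum, therefore depend on the gene model.

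**Figure D1:**
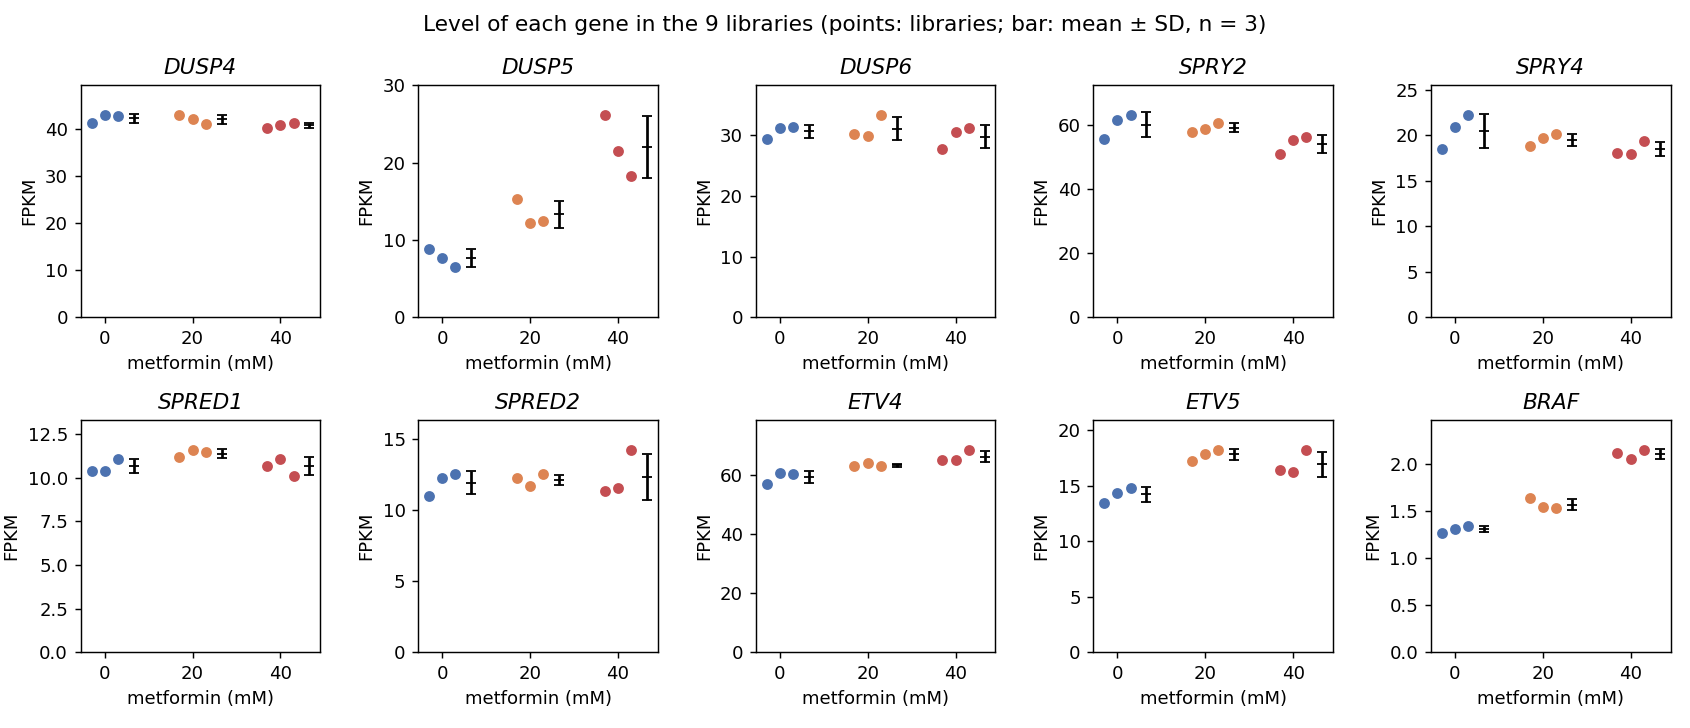
FPKM (y axis, each panel from 0) of the 10 genes against metformin dose in mM. Points are the 3 libraries per dose and the bar is their mean ± SD: DUSP5 and BRAF climb over both dose steps without overlap, while DUSP4 and DUSP6 stay within narrow bands.

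With metformin the feedback set did not move as 1 block. DUSP5 and BRAF rose at both doses and again between them, ETV5 rose at both doses, and ETV4 rose slightly at 40 mM. SPRY2 and SPRY4 fell by small amounts at 40 mM. DUSP4, DUSP6, SPRED1 and SPRED2 passed the test in none of the 3 comparisons between doses. By edgeR's quasi-likelihood test with Benjamini-Hochberg adjustment over all 12394 genes (a call is an adjusted p under 0.05), 3 of the 10 were called at 20 against 0 mM, against 31.6% of all tested genes. All 3 were higher, where 16.3% of all genes were. None was lower, where 15.2% of all genes were, and none reached an unadjusted p under 0.05 in that direction with edgeR, DESeq2 or limma. At 40 against 0 mM 6 of the 10 were called, close to the 56.2% of all genes, with 4 higher, against 28.8%, and 2 lower, against 27.4%. At 40 against 20 mM 3 were called, against 29.3%, of which 2 were higher, against 14.3%, and 1 was lower, against 15.1%. The median log2 fold change of the 10 was 0.06, -0.01 and -0.08 in these comparisons, and that of all tested genes 0.00 in each. The comparisons of 20 and of 40 mM with 0 mM share the 0 mM libraries and are not independent of each other.

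**Figure D2:**
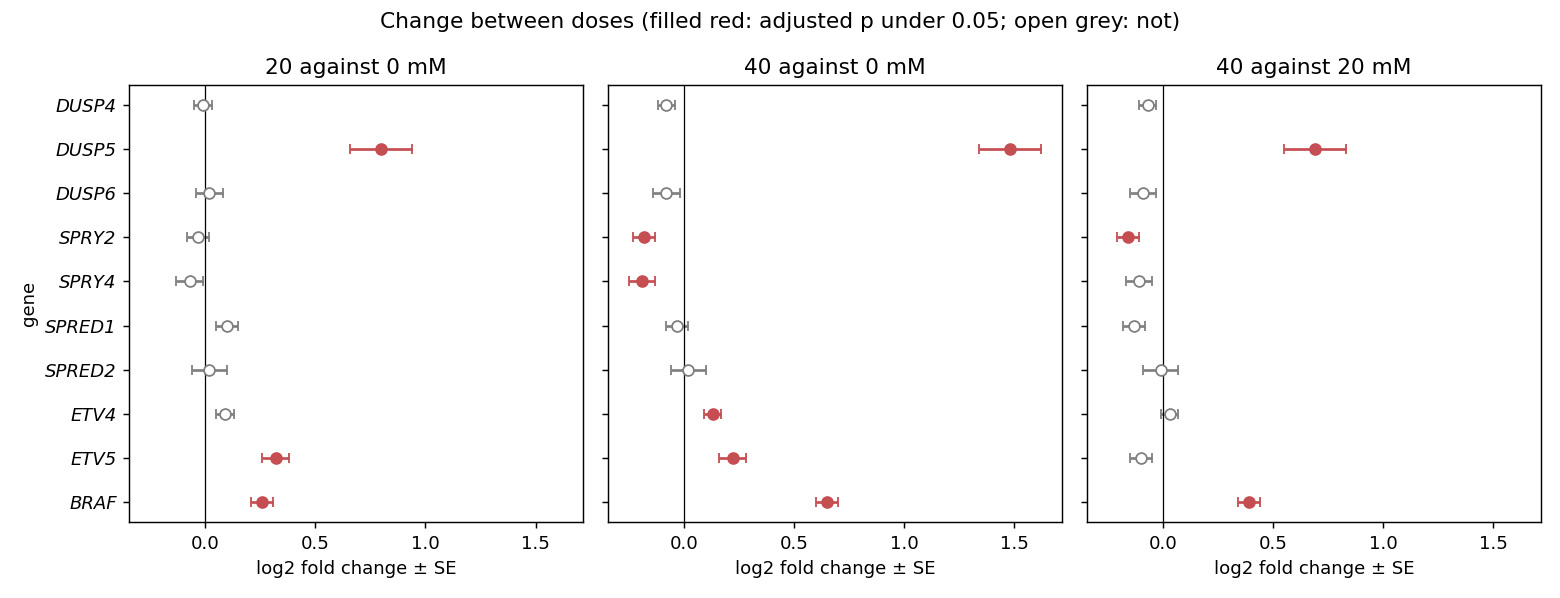
Log2 fold change ± SE from edgeR (x axis) of the 10 genes in the 3 comparisons between doses, n = 3 libraries per dose. Filled red points have an adjusted p under 0.05: DUSP5 and BRAF are filled and right of 0 in every panel, and SPRY2 and SPRY4 lie at -0.18 and -0.19 in the middle one.

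The DUSP genes encode dual-specificity phosphatases that strip ERK of the phosphates on its activation loop. DUSP5 (ENSG00000138166, chromosome 10, 110497907 to 110511533, plus strand), which works in the nucleus, had 8.79, 7.63 and 6.58 FPKM in replicates 1 to 3 at 0 mM. At 20 mM it had 15.3, 12.2 and 12.5 FPKM, and at 40 mM 26.1, 21.5 and 18.3. Every library of a higher dose exceeded every library of a lower one, although the replicates differed more than for most genes: the within-dose SD of log2 CPM was 0.221, above that of 88.9% of tested genes. DUSP5 rose by 0.80 ± 0.14 (log2 fold change ± SE) at 20 mM (edgeR adjusted p = 0.0021) and by 1.48 ± 0.14 at 40 mM (adjusted p = 9.9e-06), a 2.80-fold change. From 20 to 40 mM it rose by 0.69 ± 0.14 (adjusted p = 0.0048). Its call held in every alternative of the 3 comparisons, with 1.34 to 1.60 at 40 against 0 mM when single libraries were left out. DUSP5 is the member with the largest change in each comparison, as the plot of log2 fold changes shows.

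DUSP4 (ENSG00000120875, chromosome 8, 29333064 to 29350684, minus strand), another nuclear phosphatase, was at 41.3, 43.0 and 42.9 FPKM at 0 mM. It was at 43.0, 42.1 and 41.1 FPKM at 20 mM and at 40.3, 40.9 and 41.4 at 40 mM. The groups overlapped in FPKM. In the scaled log2 CPM, set against the 0 mM mean, the 40 mM libraries (-0.11, -0.09 and -0.06) lay below all others. The 0 mM libraries were at -0.02, 0.01 and 0.01 there, and the 20 mM libraries at 0.02, -0.01 and -0.04. The within-dose SD of log2 CPM (0.0257) was among the smallest, above that of only 1.16% of tested genes. Its log2 fold change was -0.01 ± 0.04 at 20 mM (adjusted p = 0.81) and -0.08 ± 0.04 at 40 mM (adjusted p = 0.063). At 40 mM it was called as lower by DESeq2 (-0.09, adjusted p = 0.033) and without replicate 3 of 40 mM (-0.10, adjusted p = 0.028).

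DUSP6 (ENSG00000139318, chromosome 12, 89347235 to 89352501, minus strand), the cytoplasmic ERK phosphatase, was at 29.3, 31.1 and 31.3 FPKM at 0 mM. It was at 30.1, 29.8 and 33.2 FPKM at 20 mM and at 27.6, 30.4 and 31.1 at 40 mM. All 3 groups overlapped. The log2 fold change was 0.02 ± 0.06 at 20 mM (adjusted p = 0.83), turning to -0.03 without replicate 3 of 20 mM, and -0.08 ± 0.06 at 40 mM (adjusted p = 0.28). From 20 to 40 mM it was -0.09 ± 0.06 (adjusted p = 0.24). The gene listed as AC024909 overlaps DUSP6 on the opposite strand over 1487 bases, with a mean of 246 counts per library.

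Because DUSP5 changed and the other 2 did not pass the test, the make-up of the 3 transcripts shifted. Their summed level was 79.4 to 81.8 FPKM at 0 mM, 84.1 to 88.5 at 20 mM and 90.8 to 94.1 at 40 mM. DUSP5 made up 8.15% to 11.1% of that sum at 0 mM, 14.4% to 17.3% at 20 mM and 20.1% to 27.8% at 40 mM. The share of DUSP6 was 37.0% to 38.8% at 0 mM and 29.4% to 34.3% at 40 mM. In FPKM DUSP5 at 40 mM lay above ETV5 and both SPRED genes, which it had been below at 0 mM, and overlapped SPRY4. These shares and this order depend on the gene model. The implied length was 2.81 to 2.84 kb for DUSP5 (longest transcript 2557 bases) and 6.41 to 6.48 kb for ETV5 (4111 bases). Whether the order holds with other lengths was not tested.

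**Figure D3:**
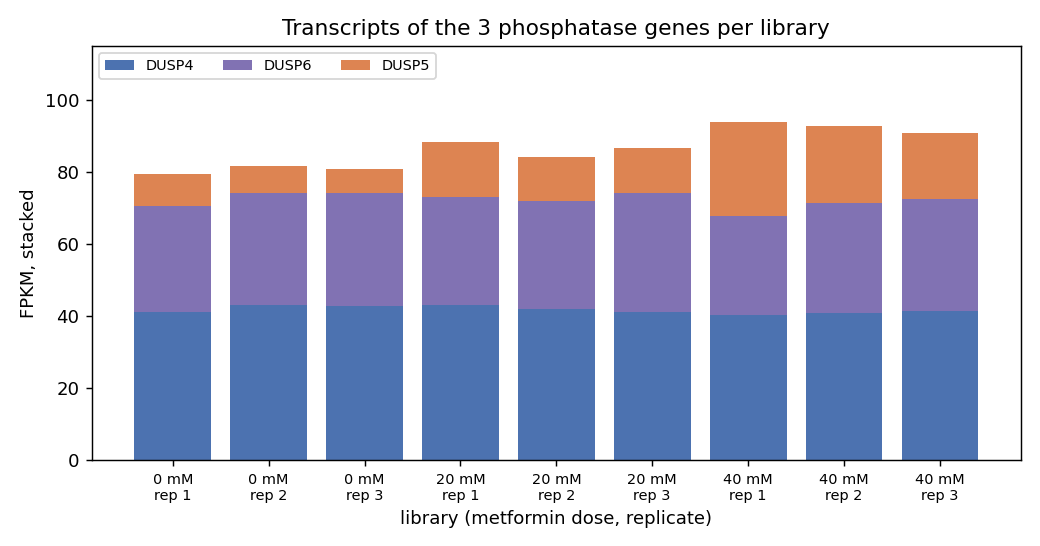
Stacked FPKM (y axis, from 0) of DUSP4, DUSP6 and DUSP5 in each of the 9 libraries, ordered by dose. The DUSP5 segment grows from 6.58 to 8.79 FPKM at 0 mM to 18.3 to 26.1 at 40 mM while the other segments change little.

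RefSeq promoter windows (build GRCh38.p14) were held for 6 of the 10 genes, DUSP6, SPRY2, SPRY4, SPRED1, SPRED2 and BRAF. DUSP5, DUSP4, ETV4 and ETV5 had no entry. The 250 bases before the start site were searched on both strands for 7 motifs tied to this pathway or to stress responses. These were the ETS letters CCGGAAG (held by 8.52% of 35116 windows of the same length), the CIC-type letters TGAATGA (3.35%) and TGAATGG (2.58%), and the AP-1 letters TGANTCA (6.57%). The others were the E-box CACGTG (6.34%), the CRE letters TGACGTC (3.12%) and the ATF4-type letters TGATGCA (2.16%). In the 9 windows of the 6 genes (SPRY2 has 3 and SPRED2 has 2) only 1 match to these exact letters was found, TGAATGA in DUSP6. Other forms of the same sites were not searched, so a window without a match may still hold such a site. The window of DUSP6 is shown because it holds that match, in capitals, upstream of a gene that passed no test (chr12:89352502-89352751, minus strand, 5′ to 3′).
DUSP6: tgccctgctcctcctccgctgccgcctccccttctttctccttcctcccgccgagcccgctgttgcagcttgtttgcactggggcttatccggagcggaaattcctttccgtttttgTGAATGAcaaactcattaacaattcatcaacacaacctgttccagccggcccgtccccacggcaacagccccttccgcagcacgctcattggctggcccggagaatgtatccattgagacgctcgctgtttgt

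Sprouty proteins are membrane-bound inhibitors that block the passage of signals from receptors to RAS and RAF. SPRY2 (ENSG00000136158, chromosome 13, 80335976 to 80341126, minus strand) had 55.6, 61.6 and 63.0 FPKM at 0 mM. It had 57.9, 58.7 and 60.7 FPKM at 20 mM and 50.8, 55.4 and 56.1 at 40 mM. In FPKM the 40 mM libraries lay below all 20 mM libraries and overlapped those at 0 mM only through replicate 1 of 0 mM. In the scaled log2 CPM, set against the 0 mM mean, the 40 mM libraries (-0.27, -0.15 and -0.12) lay below all 0 mM libraries, of which replicate 1 was lowest (-0.09). SPRY2 was at -0.03 ± 0.05 at 20 mM (adjusted p = 0.75) and fell by 0.18 ± 0.05 at 40 mM (adjusted p = 0.012). That fall was not called with scaling to library totals (-0.13, adjusted p = 0.053) or without replicate 3 of 0 mM (-0.15, adjusted p = 0.053). The fall from 20 to 40 mM (-0.16 ± 0.05, adjusted p = 0.045) was lost in 12 of 18 alternatives, with adjusted p from 0.011 to 0.15 over all of them.

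SPRY4 (ENSG00000187678, chromosome 5, 142310427 to 142326455, minus strand) had 18.5, 20.9 and 22.2 FPKM at 0 mM. It had 18.8, 19.7 and 20.1 FPKM at 20 mM and 18.1, 17.9 and 19.4 at 40 mM. Both doses overlapped with 0 mM. SPRY4 fell by 0.19 ± 0.06 at 40 mM (adjusted p = 0.023), and was at -0.07 ± 0.06 at 20 mM (adjusted p = 0.4). The call at 40 mM was lost in 7 of 18 alternatives, among them library totals (-0.13), limma (-0.14 and -0.15) and leaving out replicate 2 or 3 of 0 mM (-0.18 and -0.13) or replicate 1 or 2 of 40 mM (-0.17 and -0.16). Adjusted p ran from 0.0042 to 0.096. Summed, the pair had 74.2 to 85.2 FPKM at 0 mM and 68.9 to 75.5 at 40 mM, and SPRY2 made up 73.7% to 75.6% of the sum in every library. Over the 9 libraries, which share the dose, the log2 CPM of the pair had a Pearson r of 0.90. The windows upstream of both genes follow because these 2 fell at 40 mM, and none of the 7 motifs was found in either, so they carry no capitals (SPRY2 at chr13:80341127-80341376 and SPRY4 at chr5:142324248-142324497, both minus strand, 5′ to 3′). They hold 70.4% and 65.6% G or C, against a median of 58.0% over all windows, and the SPRY4 start site lies 2208 bases inside the deposited gene.
SPRY2: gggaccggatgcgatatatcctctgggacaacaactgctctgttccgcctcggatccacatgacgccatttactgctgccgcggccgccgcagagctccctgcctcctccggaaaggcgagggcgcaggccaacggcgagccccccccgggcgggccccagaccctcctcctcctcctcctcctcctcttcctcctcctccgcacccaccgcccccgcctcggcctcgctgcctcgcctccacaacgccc
SPRY4: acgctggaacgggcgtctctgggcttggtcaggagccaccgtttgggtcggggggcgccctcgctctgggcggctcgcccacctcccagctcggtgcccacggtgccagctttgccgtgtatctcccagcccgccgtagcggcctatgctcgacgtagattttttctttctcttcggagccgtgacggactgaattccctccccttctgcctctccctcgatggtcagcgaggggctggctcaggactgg

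The SPRED proteins bind neurofibromin and bring this RAS inhibitor to the membrane. SPRED1 (ENSG00000166068, chromosome 15, 38252836 to 38357249, plus strand) had 10.4, 10.4 and 11.1 FPKM at 0 mM. It had 11.2, 11.6 and 11.5 FPKM at 20 mM and 10.7, 11.1 and 10.1 at 40 mM. The 20 mM libraries lay above those of both other doses, yet neither difference passed the test: 0.10 ± 0.05 against 0 mM (adjusted p = 0.13) and, for 40 against 20 mM, -0.13 ± 0.05 (adjusted p = 0.055). The latter was called by DESeq2 (-0.13, adjusted p = 0.039) and without replicate 2 of 40 mM (-0.16, adjusted p = 0.042). At 40 against 0 mM it was at -0.03 ± 0.05 (adjusted p = 0.58), and at 0.02 with library totals.

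SPRED2 (ENSG00000198369, chromosome 2, 65310851 to 65432599, minus strand) had 11.0, 12.2 and 12.5 FPKM at 0 mM. It had 12.2, 11.7 and 12.5 FPKM at 20 mM and 11.3, 11.5 and 14.2 at 40 mM. The groups overlapped, and replicate 3 of 40 mM, the library that stood apart, held the highest value. The log2 fold change was 0.02 ± 0.08 at both doses (adjusted p = 0.85 and 0.88), and at 40 mM it was -0.10 without that library (adjusted p = 0.12). SPRED1 and SPRED2 had near-equal levels, with SPRED1 at 41.6% to 49.8% of their sum over the 9 libraries.

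ETV4 and ETV5 are ETS transcription factors of the PEA3 group and lie downstream of ERK. ETV4 (ENSG00000175832, chromosome 17, 43527844 to 43546340, minus strand) had 56.8, 60.5 and 60.3 FPKM at 0 mM. It had 63.0, 63.9 and 62.9 FPKM at 20 mM and 65.0, 65.1 and 68.4 at 40 mM. In FPKM no library of a higher dose fell below one of a lower dose. In the scaled log2 CPM, set against the 0 mM mean, replicates 1 and 2 of 40 mM (0.10 each) lay just below replicate 2 of 20 mM (0.11), and both doses lay above 0 mM. At 20 mM the difference was 0.09 ± 0.04 (adjusted p = 0.092), called only with the 6 libraries compared (adjusted p = 0.042) and without replicate 3 of 40 mM (adjusted p = 0.034). At 40 mM ETV4 rose by 0.13 ± 0.04 (adjusted p = 0.016), a 1.09-fold change, and this was not called with no filter (adjusted p = 0.052) or without replicate 1 of 0 mM (0.11, adjusted p = 0.072). DHX8, a splicing helicase gene on the opposite strand, spans all 18497 bases of ETV4 with a mean of 11324 counts. DHX8 itself fell at 40 mM (-0.27 ± 0.04, adjusted p = 0.00043). No source used here states the strand setting of the counting.

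ETV5 (ENSG00000244405, chromosome 3, 186046314 to 186110318, minus strand) had 13.4, 14.3 and 14.8 FPKM at 0 mM. It had 17.2, 17.8 and 18.2 FPKM at 20 mM and 16.4, 16.2 and 18.2 at 40 mM. Both treated groups lay wholly above 0 mM and overlapped each other. ETV5 rose by 0.32 ± 0.06 at 20 mM (adjusted p = 0.0015) and by 0.22 ± 0.06 at 40 mM (adjusted p = 0.0055), and both calls held in every alternative. From 20 to 40 mM it was at -0.10 ± 0.05 (adjusted p = 0.19), and it was called there without replicate 3 of 40 mM (-0.16, adjusted p = 0.019). The 64005-base gene overlaps DGKG on the same strand over 4651 bases.

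ETV5 was also the member whose 2 dose steps differed. The change from 20 to 40 mM minus that from 0 to 20 mM was -0.43 ± 0.09 for ETV5 (edgeR adjusted p = 0.024), in a test that called 6.83% of all genes, 4.11% as lower and 2.73% as higher. The call was lost with no filter (adjusted p = 0.06), without replicate 1 or 2 of 0 mM (0.053 and 0.056) and without replicate 2 or 3 of 20 mM (0.11 and 0.13). For DUSP5 the same difference was -0.11 ± 0.24 (adjusted p = 0.83) and for BRAF 0.13 ± 0.08 (adjusted p = 0.38), so a departure from equal log2 steps was not detected for either. None of the 10 was called as higher in this test by edgeR, DESeq2 or limma, nor reached an unadjusted p under 0.05 in that direction.

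BRAF (ENSG00000157764, chromosome 7, 140719327 to 140924929, minus strand) encodes the kinase that starts the cascade in these cells, and is not itself a feedback gene. It had 1.27, 1.31 and 1.34 FPKM at 0 mM, from 2519, 2544 and 2600 counts. At 20 mM it had 1.64, 1.54 and 1.53 FPKM, and at 40 mM 2.12, 2.05 and 2.15 FPKM from 4206, 4064 and 3739 counts. The doses did not overlap and the libraries within a dose were close, with a within-dose SD of log2 CPM of 0.0408, above that of 7.87% of tested genes. BRAF rose by 0.26 ± 0.05 at 20 mM (adjusted p = 0.0017) and by 0.65 ± 0.05 at 40 mM (adjusted p = 1.1e-06), a 1.57-fold change. From 20 to 40 mM it rose by 0.39 ± 0.05 (adjusted p = 0.00026). Each call held in every alternative that tested the gene. The size at 40 mM was 0.43 on the log2(FPKM + 1) scale, which understates changes near 1 FPKM, and 0.65 with a pseudocount of 0.1.

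BRAF is the longest of the 10 genes, spanning 205603 bases. Among the 1959 tested genes that span at least 100000 bases, 39.2% were higher and 22.5% lower at 40 against 0 mM, with a median log2 fold change of 0.08. For the 10435 shorter genes these values were 26.9%, 28.3% and -0.02. SPRED1 and SPRED2 also span over 100000 bases and did not pass the test there. NDUFB2, a complex I subunit gene on the opposite strand, overlaps BRAF over 3464 bases with a mean of 4510 counts, and its own log2 fold change at 40 mM was 0.04 ± 0.07 (adjusted p = 0.61). The part of gene length in the BRAF result was not tested. The window upstream of BRAF is shown because BRAF rose at both doses (chr7:140924269-140924518, minus strand, 5′ to 3′). Its start site lies 661 bases inside the deposited gene, and none of the 7 motifs was found, so it has no capitals.
BRAF: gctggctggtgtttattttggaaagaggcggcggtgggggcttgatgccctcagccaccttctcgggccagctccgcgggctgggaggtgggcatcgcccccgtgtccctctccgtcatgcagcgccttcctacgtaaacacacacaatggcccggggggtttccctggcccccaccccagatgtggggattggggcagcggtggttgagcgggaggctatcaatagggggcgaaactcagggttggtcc

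Replicate 3 of 40 mM did not carry these results: without it DUSP5 was at 1.60, BRAF at 0.64, ETV5 at 0.16, ETV4 at 0.10, SPRY2 at -0.22 and SPRY4 at -0.22 at 40 against 0 mM, all still called. Across the 9 libraries DUSP5 had a Pearson r of 0.94 with BRAF and of -0.86 with both SPRY2 and SPRY4 in log2 CPM. These values describe 9 libraries that share their doses. By the same measure, among 6983 genes with a mean of at least 5 FPKM, the profiles most like that of DUSP6 were those of RAB13 (r = 0.94), PAN2 (0.92) and LRRC8D (0.91). Those most like SPRY4 were MRPL10 (0.97), ABHD17C (0.96) and the gene listed as AC009245 (0.96), and those most like ETV5 were ITGA5 (0.99), SKAP2 (0.98) and SNRPN (0.98). Each was picked as the highest among 6983 genes over only 9 libraries, where selection alone can give high values. No link between these genes was tested.

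Other genes of the pathway were read from 6 lists, whose counts stand beside 28.8% of all tested genes higher and 27.4% lower at 40 against 0 mM, and 16.3% and 15.2% at 20 against 0 mM. Of 8 tested DUSP phosphatases outside the 10 genes, 3 rose and 2 fell at 40 against 0 mM, with a median log2 fold change of -0.04, which is close to those shares in both directions. At 20 mM none was higher and 2 were lower (1 and 4 by DESeq2, and 1 and 4 at an unadjusted p under 0.05). DUSP3, a small phosphatase of ERK and JNK, rose from 10.5 ± 0.302 to 15.7 ± 0.852 FPKM (0.55 ± 0.05, adjusted p = 8.8e-06), and DUSP14 rose by 0.32 ± 0.06. DUSP9 fell by 0.34 ± 0.12, a call lost with library totals (-0.29), without replicate 2 or 3 of 0 mM (-0.36 and -0.31) and without replicate 2 of 40 mM (-0.27).

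Among 13 tested ETS factors and CIC, 7 rose and 1 fell at 40 mM, against 28.8% and 27.4% of all genes, with a median of 0.22, and at 20 mM 4 were higher and 1 lower. ELF1 rose from 7.89 ± 0.436 to 14.1 ± 0.209 FPKM (0.81 ± 0.05, adjusted p = 7.2e-07). ETS1 rose by 0.71 ± 0.08, and ELK4, a partner of serum response factor, by 0.70 ± 0.06. All 3 had risen at 20 mM too, by 0.37 ± 0.05, 0.43 ± 0.08 and 0.45 ± 0.06. ETS2 fell at 20 mM (-0.38 ± 0.07, adjusted p = 0.0027), was at -0.09 ± 0.07 at 40 mM (adjusted p = 0.29), and was the 1 gene of the list called in the dose-step test (0.67 ± 0.13, adjusted p = 0.012). CIC itself was at 0.12 at 40 mM (adjusted p = 0.34).

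Of 14 tested receptors and adaptors, 7 rose and 2 fell at 40 mM (1 fell by limma), against 28.8% and 27.4% of all genes, with a median of 0.17. At 20 mM 5 were higher and 1 lower. The receptor PDGFRB rose from 1.12 ± 0.151 to 2.02 ± 0.137 FPKM (0.82 ± 0.11) and FGFR1 by 0.50 ± 0.07. ERBB3, a receptor of neuregulins, fell from 37.3 ± 3.74 to 24.4 ± 3.78 FPKM (-0.64 ± 0.10, adjusted p = 0.00036). The exchange factors SOS1 and SOS2, which load RAS with GTP, were among the risers.

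In the cascade itself, 5 of 16 tested genes rose, near the 28.8% of all genes, and 7 fell (5 by limma), against 27.4%, at 40 mM. The median was -0.03. At 20 mM 5 were higher and 4 lower (3 lower by limma). The largest rises lay downstream of ERK. The RSK-family kinase RPS6KA2 went from 0.671 ± 0.139 to 1.68 ± 0.0694 FPKM (1.28 ± 0.13, adjusted p = 1.4e-05), or 0.68 on the log2(FPKM + 1) scale. Being below 1 FPKM at 0 mM, RPS6KA2 passed the filter only through the treated libraries. At 20 mM it was at 2.05 ± 0.169 FPKM (1.61 ± 0.13), and its 2 dose steps differed (-1.93 ± 0.22, edgeR adjusted p = 0.00048). MKNK2, which phosphorylates the translation factor eIF4E, rose from 7.53 ± 0.646 to 16.6 ± 1.38 FPKM (1.11 ± 0.07, adjusted p = 6.3e-07), while its relative MKNK1 fell by 0.38 ± 0.06. ARAF, a kinase related to BRAF, fell by 0.31 (adjusted p = 0.00084). For the MEK genes MAP2K1 and MAP2K2 the values were 0.09 and -0.05, and neither passed the test.

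Of 12 other negative regulators, 9 rose at 40 mM, against 28.8% of all genes, with a median of 0.33, and the remaining RASA1, DAB2IP and LZTR1 did not pass the test. PEA15, which binds ERK and keeps it in the cytoplasm, rose from 107 ± 6.40 to 175 ± 14.4 FPKM (0.68 ± 0.07, adjusted p = 1.2e-05). ERRFI1, an inhibitor of EGF receptors, rose from 43.1 ± 1.63 to 69.5 ± 1.63 FPKM (0.65 ± 0.04, adjusted p = 5.9e-07). SPRY1, another Sprouty gene with low expression, rose by 0.59 ± 0.12 (adjusted p = 0.0013), in the direction opposite to SPRY2 and SPRY4, and SPRED3 rose by 0.47 (adjusted p = 0.007). At 20 mM 4 of the 12 were higher, against 16.3% of all genes, and 1, DAB2IP, lower, against 15.2%.

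Of 10 tested further transcripts known to follow ERK activity, 7 rose at 40 mM (9 by DESeq2 and 8 by limma), against 28.8% of all genes, with a median of 0.38. By edgeR EPHA4 (0.33 ± 0.14, adjusted p = 0.059), FOS (0.42 ± 0.17, adjusted p = 0.061) and MYC (-0.25 ± 0.13, adjusted p = 0.13) did not pass the test there. At 20 mM 5 were higher, against 16.3%, and 1 lower, MYC (-0.49 ± 0.13, adjusted p = 0.018), against 15.2% (2 lower by DESeq2). The cytokine LIF rose from 12.1 ± 0.949 to 22.9 ± 0.244 FPKM (0.88 ± 0.07, adjusted p = 1.6e-06), and the AP-1 subunit FOSL1 from 124 ± 6.34 to 196 ± 22.1 (0.63 ± 0.08). The immediate early factor EGR1 was at 2.85 ± 0.458 FPKM at 0 mM, 1.93 ± 0.262 at 20 mM and 5.19 ± 1.54 at 40 mM (0.83 ± 0.20 at 40 against 0 mM, adjusted p = 0.0043). The feedback and ETS genes described above, often read beside these genes, were split. DUSP5 and ETV5 were called as higher at both doses and ETV4 at 40 mM. DUSP4, DUSP6, SPRY2, SPRY4, SPRED1 and SPRED2 were not called as higher at either dose.

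**Figure D4:**
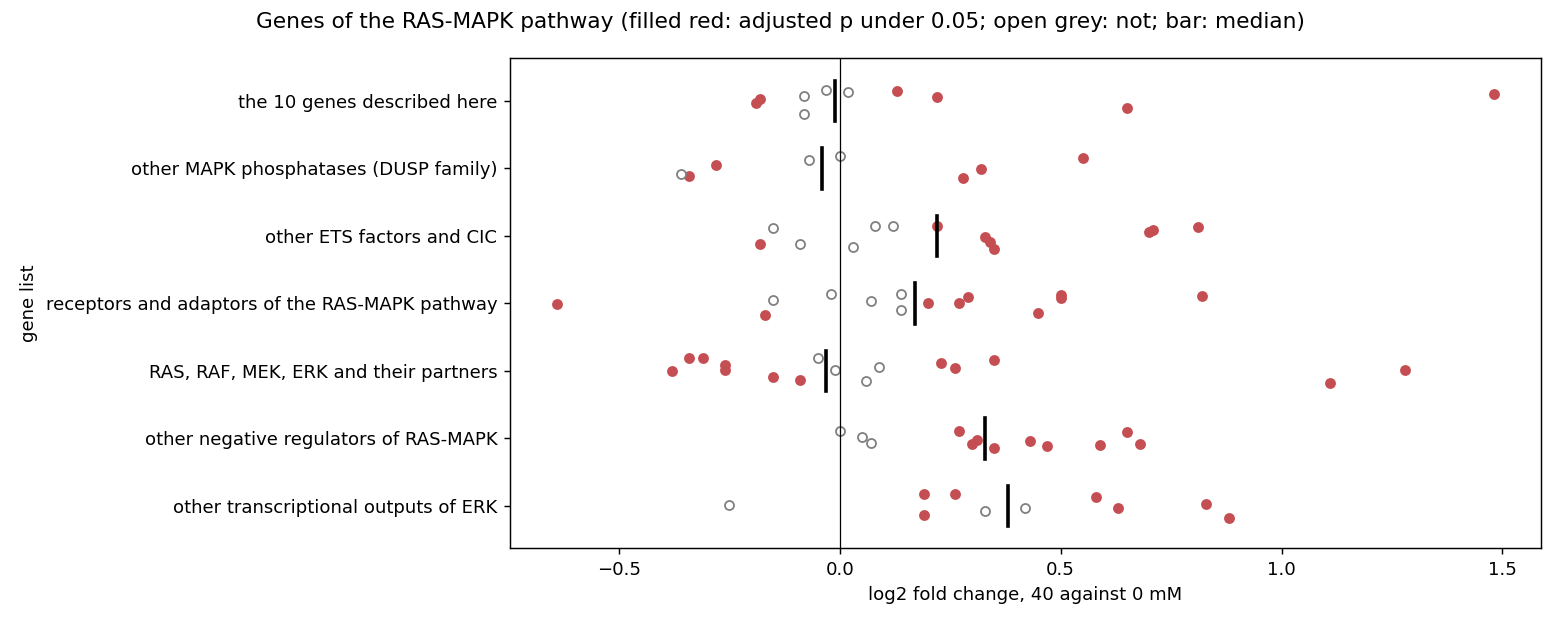
Log2 fold change at 40 against 0 mM (x axis) of each tested gene in the 10-gene set and the 6 lists, with points spread vertically only for legibility. Filled red points have an adjusted p under 0.05 and black bars are list medians, which run from -0.04 for other DUSP phosphatases to 0.38 for other ERK outputs.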

How the data were processed

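RNA was measured in 9 libraries of A375 cells, 3 at each of 0, 20 and 40 mM metformin; per the labels' protocols, poly(A) RNA was captured and strand-specific paired-end libraries were made. The deposited table gives read counts per gene, per the file headers. FPKM values per gene are deposited beside them, per the file headers. The submitters' processing notes list StringTie 2.1.6 without its role; aligner, genome build, annotation and strand setting are not stated there or in the labels. Positions are those of the deposited table.

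The tests covered genes averaging at least 1 FPKM (12394, holding 98.74% of counts) with edgeR 4.0.16 (quasi-likelihood, TMM, all 9 libraries in 1 fit) in R 4.3.3, and p-values were adjusted by Benjamini-Hochberg over all of them. The SE is the log2 fold change over the square root of F. A further contrast compared the 2 dose steps. Alternatives used limma 3.58.1, DESeq2 1.42.0, other filters and scalings, a replicate block and 9 left-out libraries. The fit was also run on simulated counts with few changed genes and independent libraries. That run could not test the scaling or the independence of replicates in these data, and no result here rests on it. No 2 libraries were identical.

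All 10 members are described. From each pathway list the 3 called genes with the largest change at 40 against 0 mM are named, and likeness is Pearson r of log2 CPM (prior count 1). Other genes were named after their values were seen: CIC, ARAF, MAP2K1, MAP2K2, SOS1, SOS2, SPRED3, ETS2, EPHA4, FOS, MYC, RASA1, DAB2IP and LZTR1. Members and lists were chosen with earlier results of these data known.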

Additional observations from a re-analysis of the deposited data

How the results depend on the processing

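Under the 18 alternatives the rises of DUSP5, ETV5 and BRAF kept their direction and their call at both doses wherever the gene was tested (BRAF was not, at a filter of 5 FPKM). The small falls depended on the settings. At 40 against 0 mM the 2 lower members became 0 with library totals and 1 with limma at either pseudocount. Without single libraries they ran from 0 to 3. At 40 against 20 mM the 1 lower member became 0 with no filter, with a filter of 5 FPKM, with library totals, with limma and with only the 6 libraries compared, became 2 with DESeq2, and ran from 0 to 2 without single libraries. The 2 higher members became 1 at 5 FPKM, where BRAF was left out. For the difference of the dose steps the 1 lower member became 0 with no filter and ran from 0 to 1 without single libraries. The cause was not tested.

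Over all genes a filter of 5 FPKM, which tests fewer genes, gave 2517 calls instead of 3911 at 20 against 0 mM, 4245 instead of 6962 at 40 against 0 mM and 2367 instead of 3637 at 40 against 20 mM, which ran from 2408 to 4065 without single libraries. The dose-step test gave 847 calls, 385 with no filter, 1428 with DESeq2 and 179 to 1664 without single libraries (the lowest without replicate 2 of 20 mM, the highest when replicate 3 of 40 mM was left out).

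Signs turned only for values that passed no test. SPRED1 at 40 against 0 mM became 0.02 with library totals. SPRED2 at 40 against 20 mM became 0.03 with library totals and 0.02 with limma, and ran from -0.12 to 0.05 without single libraries. Without single libraries SPRED2 ran from -0.02 to 0.06 at 20 and from -0.10 to 0.08 at 40 against 0 mM, DUSP6 from -0.03 to 0.05 and SPRY2 from -0.07 to 0.01 at 20 mM. For the dose steps these ranges were -0.25 to 0.12 for DUSP5, -0.10 to 0.02 for SPRY4 and -0.15 to 0.03 for SPRED2. Library totals moved the median of all genes to 0.05 at 40 against 0 mM.

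Deviations of same-numbered replicates from their dose means correlated weakly between doses, from -0.101 to 0.186. For different numbers the range was -0.191 to 0.124. Such weak correlations over all tested genes cannot decide whether the numbers pair the libraries. With the replicate number as a block, 4245, 7215, 3982 and 1092 genes were called in the 3 comparisons and the dose-step test. Without the block these were 3911, 6962, 3637 and 847, and the counts of members did not change. How much of the spread between the 3 libraries of a dose came from counting was not tested.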
